A study of Mus musculus with 8 samples.

Results

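The BBSome is a coat-like complex of 8 proteins that moves membrane proteins into and out of primary cilia, and loss of its subunits causes Bardet-Biedl syndrome (BBS), a ciliopathy that includes retinal degeneration. Bbs1, Bbs2, Bbs7 and Bbs9 build much of its body with beta-propeller domains, Bbs4 and Bbs8 are tetratricopeptide repeat proteins, Bbs5 carries pleckstrin homology domains and Bbip1 is a very small subunit. The small GTPase Arl6 (also called Bbs3) recruits the assembled complex to membranes when it is bound to GTP, and Lztfl1 (also called Bbs17) binds the complex and regulates its entry into cilia. In the eye, the retinal pigment epithelium (RPE) bears primary cilia while it matures, and photoreceptors depend on a modified cilium for their outer segments.

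The genes for the 8 subunits, Arl6 and Lztfl1 were chosen by name, and all 10 were found among the 31053 gene rows of each library. They were measured by QuantSeq 3′ mRNA sequencing of RPE eyecups at postnatal day 11 (P11), in 4 libraries from untreated Bbs8+/+ mice and 4 from untreated Bbs8-/- littermates on the C57/Bl6 strain. The Bbs8-/- allele is a germline knockout of Bbs8, whose gene symbol is Ttc8. No driver line or cell type restricts it, and the exons it removes are not given in the sources used here. Eyecups are what remains of the eye after cornea, lens, retina and optic nerve are taken off, so they hold choroid and sclera beside the RPE. In such bulk tissue, fewer cells of a type and less RNA per cell cannot be told apart.

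Total gene counts were 1636725 to 2884983 per library, and 3 counts, taken as the smallest level the depth could show, equalled 1.04 to 1.83 CPM (gene counts scaled to the library total). Summed over 10 markers, RPE transcripts reached 17352 to 18454 CPM in Bbs8+/+ and 18744 to 19094 CPM in Bbs8-/-, with Rpe65 and Ttr abundant throughout and Best1 at 0 to 10 counts. Most of this sum was Ttr, with means of 10955 and 11676 CPM, while Rpe65 had means of 2002 and 1827 CPM, and of the 10 markers 1 was called higher (Otx2) and 1 lower (Mitf). Among lists for other cell types, 10 photoreceptor markers summed to 412 to 469 CPM in Bbs8+/+ and 327 to 367 CPM in Bbs8-/-, and 10 lens markers to 205 to 241 and 451 to 480.1 CPM, without overlap, with 2 photoreceptor markers called lower and 4 lens markers called higher. The lists did not move as a whole. Cryab, most of the lens sum in Bbs8+/+, had means of 162 and 146 CPM, and the other lens means were higher in Bbs8-/-. Among photoreceptor markers, the means of Pde6g, Nrl and Opn1sw were higher in Bbs8-/- and the others lower. A list of 6 melanocyte markers summed to 13687 to 14387 and 11289 to 11901 CPM, most of it Dct, a pigment gene that the RPE also expresses. Of these 6, 5 were called lower, Ednrb, Mlana, Pmel, Dct and Tyrp1, and Sox10, with means of 130 and 125 CPM, was not called. Sums of 6 skeletal muscle markers overlapped, at 1078 to 1176 and 1152 to 1250.2 CPM, with 1 marker, Myh8, called higher. Of 8 markers of multiciliated epithelium, 7 were found, with sums of 16.8 to 22.1 and 13.1 to 26.1 CPM. Most of this was Ccdc39, with 23 to 51 counts per library and means of 16.8 and 16.4 CPM. Dnah9 had 0 to 9 counts, and Foxj1 (0 to 1 counts) and Mcidas (0 counts) were nearly absent. Xist and 4 Y-linked genes were counted in all 8 libraries, so each library held RNA of both sexes. The Y-linked share of these counts was 7.68% to 8.78% in Bbs8+/+ and 14.9% to 17.3% in Bbs8-/-. The methods count each animal as a replicate, but a library with RNA of both sexes cannot come from a single animal. How animals were pooled, and whether libraries of a genotype share RNA, is not given. The p-values and SDs below therefore measure the spread between these libraries. That spread may be largely technical and need not measure the spread between animals.

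In a 3′ assay a gene is counted from reads near the ends of its transcripts, so annotated ends of the members were examined. Counts were deposited per gene, and which annotated end the reads came from was not examined. For the longest coding transcript of each member, the last 30 bases of the final exon were read from GENCODE M21 (mm10), all within the 3′ UTR. The ends of the 3 members with the smallest p-values and of Bbs5, the member with the fewest counts, are shown 5′ to 3′. The polyadenylation hexamer AATAAA is in capitals.
Ttc8: tatattacactttaaAATAAAtcagtatgt
Bbs4: tcatattaaaagatttttaaaaaAATAAAa
Bbs5: gatttAATAAAgacttttatgcagcactaa
Arl6: ttttAATAAAtttttaatattttataactg
They lie at chr12:98983203-98983232 (plus strand), chr9:59321990-59322019 (minus strand), chr2:69667542-69667571 (plus strand) and chr16:59612949-59612978 (minus strand). AATAAA was present in the last 30 bases of 8 of the 10 members and of 51.3% of 21901 protein-coding genes. Either AATAAA or ATTAAA was present in all 10 members and in 63% of these genes. In Bbs4 AATAAA begins 7 bases before the annotated end, against 15 in Ttc8, 25 in Bbs5 and 26 in Arl6. The Bbs4 end also holds ATTAAA, left in lower case, which begins 26 bases before the end. Only the last exon of Lztfl1 overlaps another annotated gene, the lincRNA Gm17200 on the opposite strand, over 386 of its 5688 bases. The strand setting of the counting is not given in the sources used here, so reads in that stretch cannot be assigned with certainty.

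The starts of these genes were examined as well, because many ciliary genes carry an X-box, the palindromic site bound by RFX transcription factors. In the 300-base RefSeq promoter windows (GRCm38.p6, 250 bases before to 50 after the start site), which existed for all 10 members, the letters GTNNCCNNGGNNAC or GTNNCCNNNGGNNAC were searched. Each pattern reads the same on both strands, and they differ only in a spacer of 2 or 3 bases. A match was present in Bbs1, Bbs4, Bbs7 and Lztfl1, which is 4 of 10 members. Among all 26994 genes with a window, 773 (2.86%) held a match. The patterns were chosen after some of these promoters had been read, so the count is a description only. The matches are shown in capitals with 7 flanking bases on each side.
Bbs1: tgagctgGTTGCCAAGGCGACgcctggg
Bbs4: tcagctgGTCGCCCGGGAAACggtcggc
Bbs7: cgccccgGTTGCCTTGGAAACcggccag
Lztfl1 upstream: tttctctGTTGCCATTGGCAACggcaggc
Lztfl1 downstream: tgtctccGTTCCCATTGGCAACgcgcggc
All 5 were read on the minus strand, at chr19:4906606-4906633, chr9:59353465-59353492, chr3:36613490-36613517, chr9:123717768-123717796 and chr9:123717598-123717626. The Bbs7 match ends 107 bases before the start site and the upstream match of Lztfl1 149 bases before it. The Bbs1 and Bbs4 matches and the downstream match of Lztfl1 lie just inside the transcribed region. The other 6 members, Ttc8 and Arl6 among them, held neither pattern in this window.

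Ttc8, the targeted gene, was examined first. It lies on chromosome 12 from 98920574 to 98983238 in mm10, on the plus strand. In the 4 Bbs8+/+ libraries 34, 50, 39 and 62 of its reads were counted, which is 14.7, 19.7, 18.2 and 21.7 CPM after TMM normalization. In the 4 Bbs8-/- libraries 16, 7, 5 and 9 reads were counted, which is 9.72, 3.66, 2.30 and 4.21 CPM. Every Bbs8-/- library lay below every Bbs8+/+ library. The log2 fold change was -1.95 ± 0.317 (SE) in the edgeR quasi-likelihood fit (FDR 2.75e-06), so that 25.8% of the Bbs8+/+ level remained (95% interval 16.7% to 39.9%). Over the groups, 185 reads were counted in Bbs8+/+ and 37 in Bbs8-/-.

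The reads of Ttc8 that remained in Bbs8-/- were not evenly spread. Bbs8-/- replicate 1 held 9.72 CPM, with an exact Poisson interval of 5.56 to 15.8 CPM, which overlaps the intervals of Bbs8+/+ replicates 1 (10.2 to 20.5 CPM), 2 (14.6 to 26.0 CPM) and 3 (13.0 to 24.9 CPM). The other Bbs8-/- libraries had upper limits of 5.36 to 7.99 CPM, under the lower limit of every Bbs8+/+ library. The interval of Bbs8-/- replicate 1 also overlaps those of Bbs8-/- replicates 2 (1.47 to 7.54 CPM) and 4 (1.92 to 7.99 CPM), but not that of replicate 3 (0.746 to 5.36 CPM). These intervals cover counting error only. Without Bbs8-/- replicate 1 the log2 fold change was -2.44, and without replicate 3, which had the fewest reads, it was -1.70. Because the exons removed by the allele are not given, whether these 3′ reads come from outside the deleted part was not tested, and they say nothing about a protein.

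**Figure D1:**
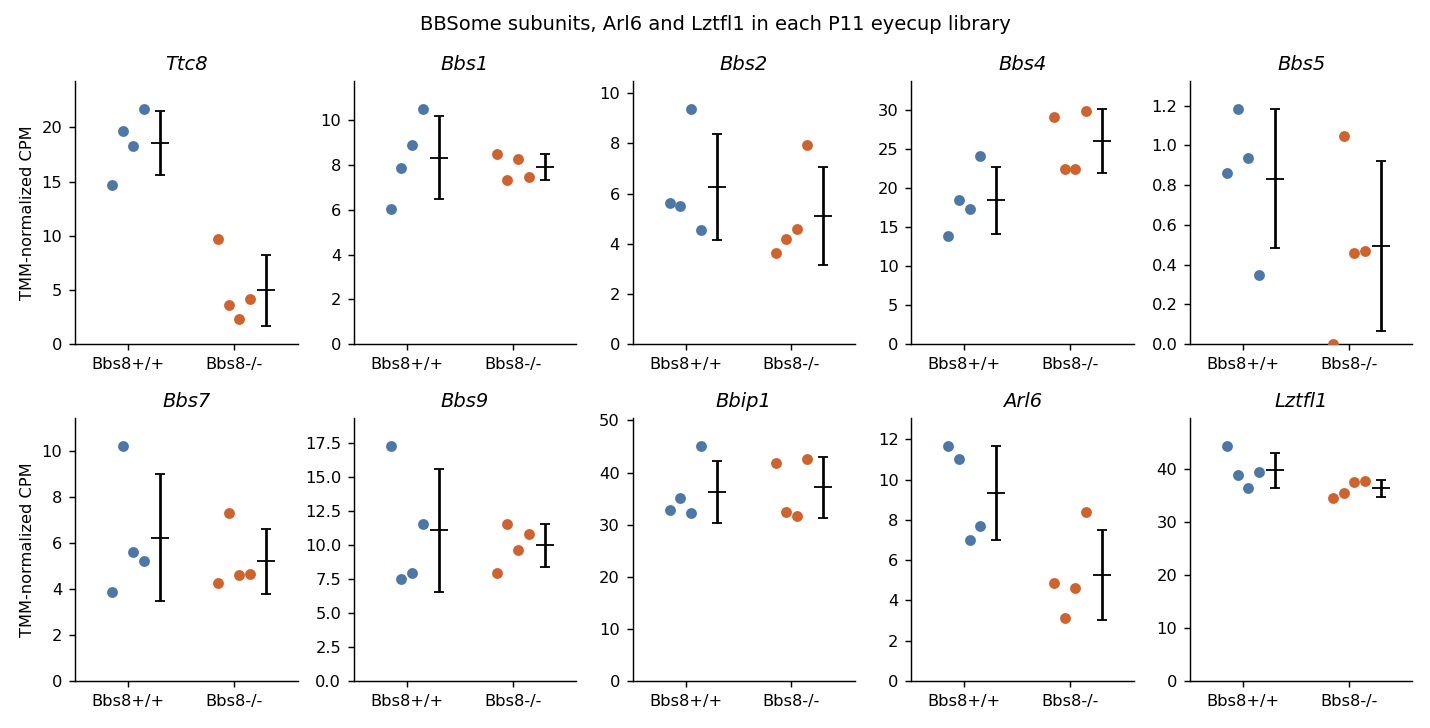
TMM-normalized CPM of the 10 genes in each library, 1 panel per gene with its own axis from 0. Points are libraries, and the horizontal bar with whiskers is the mean ± SD of the 4 libraries of a genotype. The genotypes separate in the Ttc8 panel (14.7 to 21.7 against 2.30 to 9.72 CPM) and overlap in the other 9.

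Of the 10 members, 9 passed the filter on low counts and were tested. Ttc8 was the 1 member past FDR 0.05, against 309 of 13813 tested genes (2.24%). It was also the 1 member whose libraries did not overlap between genotypes, against 7.38% of tested genes. At an unadjusted p under 0.05 stood 3 of the 9, Ttc8, Bbs4 and Arl6, against 13.0% of tested genes. Among the other 8 tested members no gene passed FDR 0.05, the smallest FDR was 0.29, and the median log2 fold change was -0.14 beside -0.0041 over all tested genes. DESeq2 likewise called none of these 8.

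The beta-propeller subunits were low and variable. Bbs1, on chromosome 19, had 6.04, 7.88, 8.89 and 10.5 CPM in Bbs8+/+ and 8.50, 7.32, 8.27 and 7.48 CPM in Bbs8-/-, where all libraries lay within the Bbs8+/+ range. Its log2 fold change was -0.09 with a 95% interval of -0.76 to 0.59 (edgeR FDR 0.954). The interval runs from 59.0% to 151% of the Bbs8+/+ level, so changes of that size could not be seen at this depth. Bbs2, on chromosome 8, had 5.61, 5.51, 9.36 and 4.55 CPM in Bbs8+/+ and 3.64, 4.18, 4.59 and 7.95 CPM in Bbs8-/-, with overlap through Bbs8-/- replicates 3 and 4. Its log2 fold change was -0.26 with an interval of -1.10 to 0.58 (edgeR FDR 0.870).

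Bbs7, which pairs closely with Bbs2 in the complex, showed the same low level. It had 3.88, 10.2, 5.61 and 5.24 CPM in Bbs8+/+ and 4.25, 7.32, 4.59 and 4.68 CPM in Bbs8-/-. Its log2 fold change was -0.26 with an interval of -1.10 to 0.57 (edgeR FDR 0.865). In each genotype replicate 2 was the highest library. Bbs9, a scaffold subunit on chromosome 9, had 17.3, 7.48, 7.95 and 11.5 CPM in Bbs8+/+ and 7.90, 11.5, 9.65 and 10.8 CPM in Bbs8-/-. Its log2 fold change was -0.14 with an interval of -0.75 to 0.46 (edgeR FDR 0.904). Bbs8+/+ replicate 1 lay above all other libraries, and without it the value was 0.14.

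Bbs4, the other tetratricopeptide repeat subunit, was the tested subunit other than Ttc8 with the smallest p. It had 13.8, 18.5, 17.3 and 24.1 CPM in Bbs8+/+ and 29.2, 22.5, 22.5 and 29.9 CPM in Bbs8-/-. The Bbs8+/+ library with the most, replicate 4, lay above Bbs8-/- replicates 2 and 3, and the other 3 Bbs8+/+ libraries lay below all of Bbs8-/-. The means were 18.4 ± 4.28 and 26.0 ± 4.08 CPM (SD, n = 4 each). The log2 fold change of 0.48 had a 95% interval of 0.06 to 0.90 and an unadjusted edgeR p of 0.0248, but the FDR was 0.290, so the difference did not pass the threshold. It stayed positive in all 15 alternative settings, from 0.37 to 0.65, with FDR of 0.165 to 0.551.

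Bbip1, on chromosome 19 like Bbs1, was the subunit with the highest level. It had 32.8, 35.0, 32.3 and 45.1 CPM in Bbs8+/+ and 41.9, 32.4, 31.7 and 42.6 CPM in Bbs8-/-, and the ranges nearly coincided. Its log2 fold change was 0.02 with an interval of -0.31 to 0.35 (edgeR FDR 0.979), which is 80.8% to 127% of the Bbs8+/+ level. Bbs5 lay at the other end, with 2, 3, 2 and 1 reads in Bbs8+/+ and 0, 2, 1 and 1 reads in Bbs8-/-. Bbs5 did not reach 1 CPM in 4 libraries and was left out by the filter on low counts. All its counts were at or under the floor of 3 reads, so no fold change is given.

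Arl6, the GTPase that brings the complex to membranes, had the largest difference on the log2 scale after Ttc8 among the tested members. It had 11.7, 11.0, 7.02 and 7.69 CPM in Bbs8+/+ and 4.86, 3.14, 4.59 and 8.42 CPM in Bbs8-/-. Bbs8-/- replicate 4 lay within the Bbs8+/+ range and the other 3 below it. The means were 9.35 ± 2.33 and 5.25 ± 2.24 CPM (SD, n = 4 each). The log2 fold change of -0.81 had a 95% interval of -1.54 to -0.08 and an unadjusted edgeR p of 0.0303, with an FDR of 0.319 that did not pass. It stayed negative in all 15 alternatives, from -1.15 to -0.63, with FDR of 0.21 to 0.553.

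Lztfl1, the regulator of ciliary entry, had the highest mean of the 10 in Bbs8+/+. In Bbs8-/- its mean of 36.4 CPM lay slightly under that of Bbip1 (37.1 CPM). Lztfl1 had 44.4, 39.0, 36.5 and 39.5 CPM in Bbs8+/+ and 34.6, 35.6, 37.7 and 37.9 CPM in Bbs8-/-, and Bbs8+/+ replicate 3 fell among the Bbs8-/- libraries. Its log2 fold change was -0.13 with an interval of -0.44 to 0.19 (edgeR FDR 0.817). In Bbs8-/- the interval runs from 73.6% to 114% of the Bbs8+/+ level. The summed photoreceptor, pigment and lens markers given above moved between the same libraries. Their part in the values of Ttc8, Bbs4, Arl6 or any other member was not tested, nor was that of the Y-linked share.

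**Figure D2:**
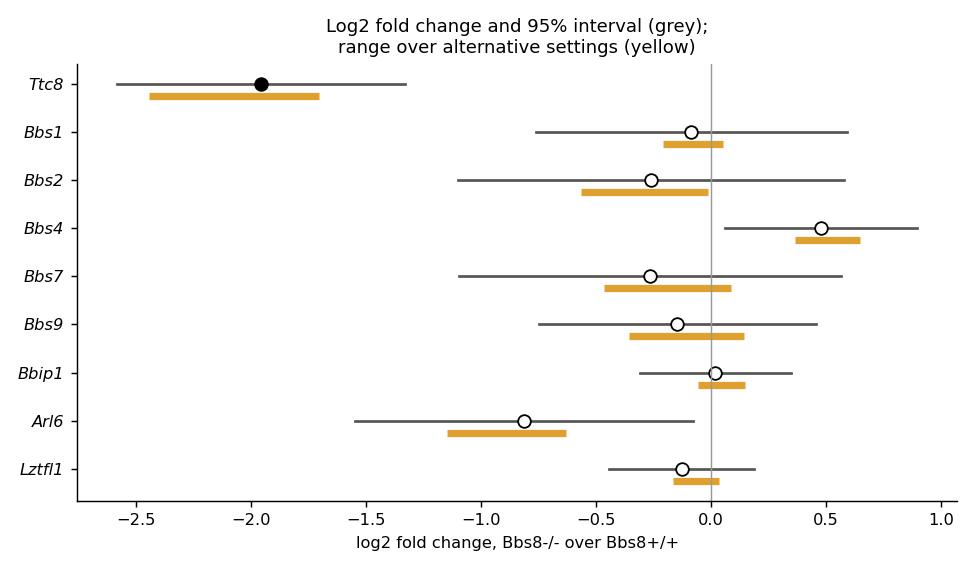
Log2 fold change of the 9 tested members, Bbs8-/- over Bbs8+/+ (x axis), with the 95% interval as a grey line and the range over 15 alternative settings as a yellow bar. The filled point is past FDR 0.05 and open points are not. The intervals of Ttc8, Bbs4 and Arl6 do not include 0, and Ttc8 is the 1 filled point, at -1.95.

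The levels of the 10 genes spanned a wide range in Bbs8+/+. QuantSeq reads each transcript once at its 3′ end, so CPM were compared between genes without dividing by length. Lztfl1 (39.9 ± 3.33 CPM) and Bbip1 (36.3 ± 5.99 CPM) were highest, with overlapping libraries. They were followed, without overlap, by Ttc8 (18.6 ± 2.96 CPM) and Bbs4 (18.4 ± 4.28 CPM), which overlapped each other. Next came Bbs9 (11.1 ± 4.51), Arl6 (9.35 ± 2.33), Bbs1 (8.32 ± 1.86), Bbs2 (6.26 ± 2.12) and Bbs7 (6.25 ± 2.76 CPM), where each neighbour in the order overlapped the next, as did Bbs9 with Bbs4. Bbs5 (0.832 ± 0.349 CPM) lay below all others without overlap. Over all 8 libraries the median tested gene had 18.7 CPM, close to the Bbs8+/+ means of Ttc8 and Bbs4. In Bbs8-/- Ttc8 dropped from the middle of this order to 4.97 ± 3.27 CPM, next to Bbs2 (5.09 ± 1.94 CPM) and Bbs7 (5.21 ± 1.42 CPM).

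Summed over the 7 other subunits, the level was 80.3, 85.8, 82.3 and 101 CPM in Bbs8+/+ and 95.4, 86.3, 81.8 and 104 CPM in Bbs8-/-. The groups overlapped almost fully, with means of 87.5 ± 9.57 and 91.8 ± 9.81 CPM (SD, n = 4 each). Bbip1 and Bbs4 made up most of these sums. With Ttc8 included, the sums were 106 ± 12.2 and 96.8 ± 11.6 CPM. The share of Ttc8 in the tags of the 8 subunits was 15.5%, 18.7%, 18.1% and 17.6% in Bbs8+/+ and 9.25%, 4.07%, 2.73% and 3.90% in Bbs8-/-. No test was made on these sums, and transcript tags do not measure subunit proteins.

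**Figure D3:**
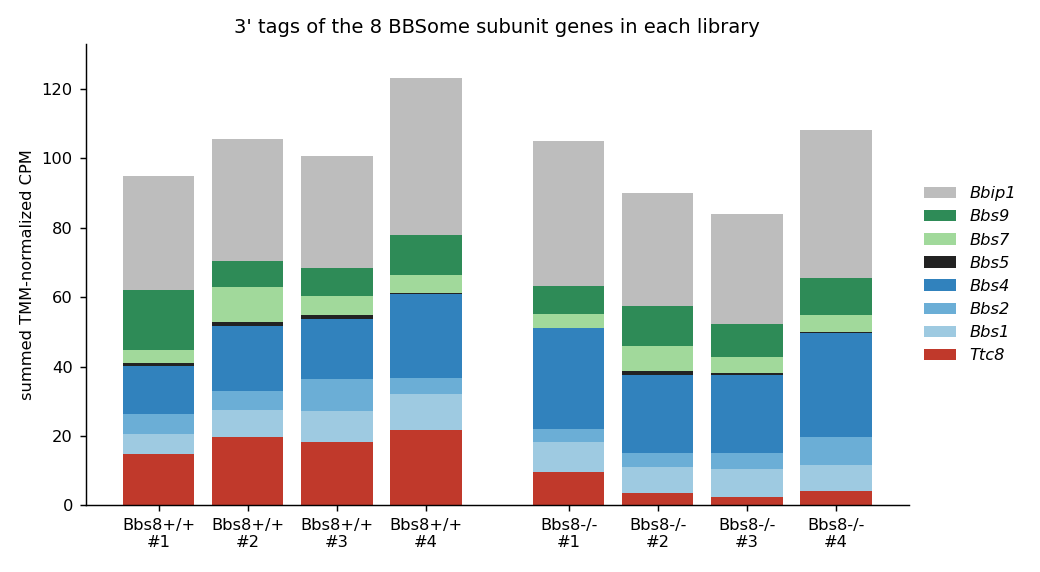
Summed TMM-normalized CPM (y axis) of the 8 BBSome subunit genes in each library, stacked by gene with Ttc8 at the bottom. The Ttc8 segment shrinks from 14.7 to 21.7 CPM in Bbs8+/+ to 2.30 to 9.72 CPM in Bbs8-/-, while the rest of each bar covers 80.3 to 101 and 81.8 to 104 CPM.

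To place the members among their partners, 26 other genes were examined that cause BBS or regulate the complex. They included the chaperonin-like Mkks, Bbs10 and Bbs12, which help assemble the BBSome, the transport protein Ift27, which frees Arl6 for the exit of the complex from cilia, and the Rab8 and Rabin8 (Rab3ip) proteins of ciliary membrane traffic. All 26 were tested and none passed FDR 0.05 in edgeR, beside 2.24% of all tested genes, and DESeq2 also called none. At an unadjusted p under 0.05 stood 2 of them (7.69%), beside 13.0% of all tested genes. Their median log2 fold change was 0.03, with 14 values above and 12 below 0. The 3 with the smallest p were Cep290, Scaper and Trim32.

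Cep290, a protein of the ciliary transition zone, had 89.3, 79.5, 93.6 and 94.4 CPM in Bbs8+/+ and 77.1, 70.1, 77.6 and 68.3 CPM in Bbs8-/-. Its libraries did not overlap, as in 7.38% of all tested genes, but the log2 fold change of -0.28 had an edgeR FDR of 0.223. Scaper, another BBS-linked gene, had 126, 132, 128 and 123 CPM in Bbs8+/+ and 123, 149, 165 and 145 CPM in Bbs8-/-, with a log2 fold change of 0.19 (edgeR FDR 0.341). Trim32, an E3 ubiquitin ligase, had means of 9.83 ± 3.05 and 6.27 ± 2.00 CPM (SD, n = 4 each) with overlap, and a log2 fold change of -0.64 (edgeR FDR 0.450). Among the chaperonin-like genes, Mkks had means of 6.21 ± 2.77 and 4.44 ± 2.45 CPM, Bbs10 of 3.50 ± 1.01 and 3.96 ± 2.47 CPM, and Bbs12 0 to 6 reads per library. These low counts leave wide intervals, from -1.37 to 0.38 on the log2 scale for Mkks.

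Proteins carried by the complex were described in the same way. Of 18 cargo genes, which include the Hedgehog receptor component Smo and several G protein-coupled receptors, 12 were tested and none passed FDR 0.05 in edgeR or DESeq2, with 1 (8.33%) at an unadjusted p under 0.05 beside 13.0% of all tested genes. Their median log2 fold change was -0.05. Sstr3, Mchr1, Npy2r, Drd2, Drd5 and Htr6, receptors best known from neuronal cilia, had 0 to 3 reads per library and were not tested. Drd1, a dopamine receptor, had 2, 5, 3 and 2 reads in Bbs8+/+ and 2, 13, 10 and 5 in Bbs8-/-, with a log2 fold change of 1.58 (edgeR FDR 0.283). The difference in means rests on few reads, and the library ranges overlap. Adcy3, the adenylyl cyclase used as a marker of cilia, had 4.75, 5.12, 5.61 and 6.64 CPM in Bbs8+/+ and 8.50, 11.0, 6.89 and 8.42 CPM in Bbs8-/- without overlap, as in 7.38% of all tested genes, with a log2 fold change of 0.64 (edgeR FDR 0.487). Lepr, the leptin receptor, had means of 12.1 ± 2.35 and 8.43 ± 2.27 CPM and a log2 fold change of -0.50 (edgeR FDR 0.509).

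**Figure D4:**
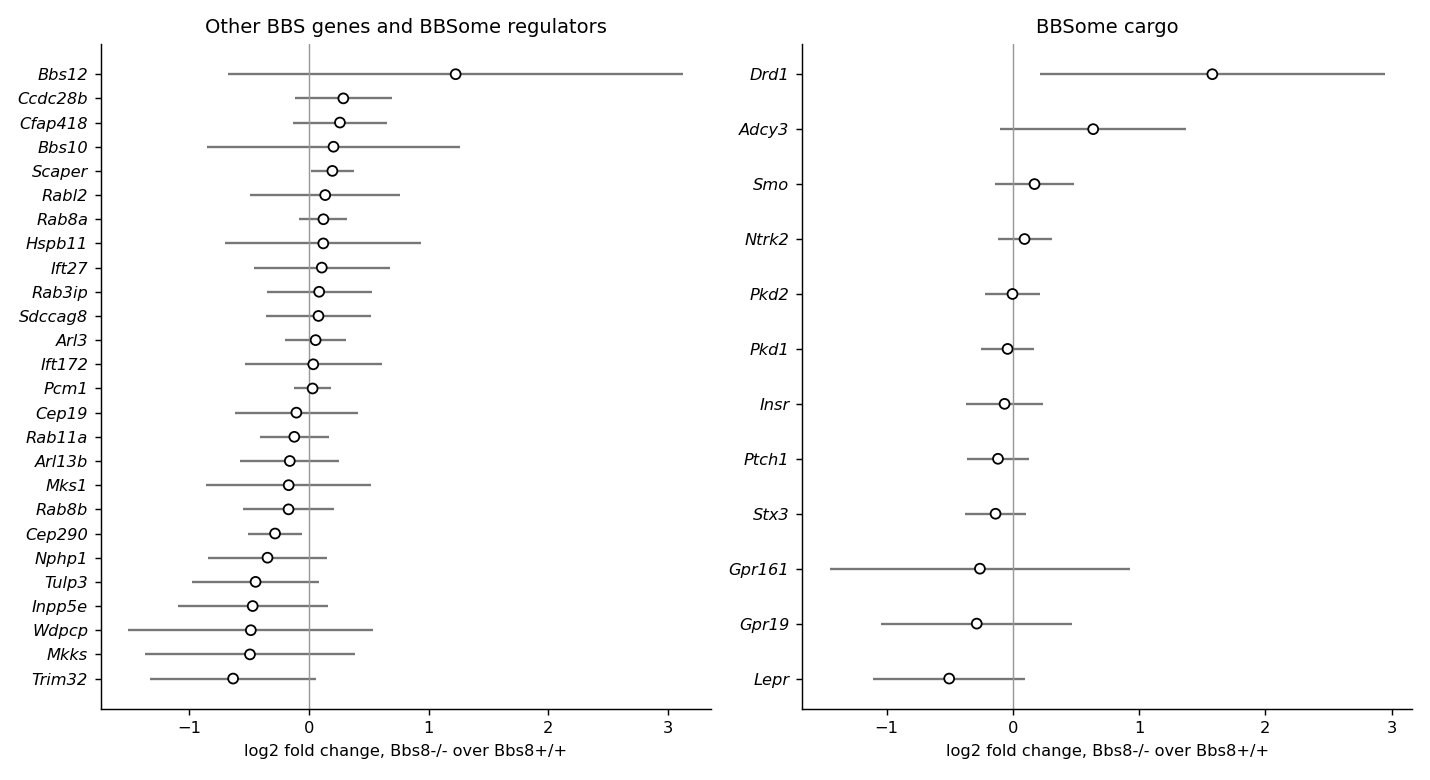
Log2 fold change, Bbs8-/- over Bbs8+/+ (x axis), with 95% intervals for 26 other BBS genes and BBSome regulators (left) and 12 tested cargo genes (right), each ordered by value. All points are open because none passed FDR 0.05, and the widest intervals belong to genes with few reads such as Bbs12 and Drd1.

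The surroundings of the targeted locus were examined because sequence beside a targeted gene is inherited with it. Among genes whose start site lies within 1 Mb of that of Ttc8, 8 of 22 were tested and none passed FDR 0.05 in edgeR or DESeq2, with 1 (12.5%) at an unadjusted p under 0.05 beside 13.0% of all tested genes. Within 5 Mb, 1 of 43 tested genes passed, which is 2.33% beside 2.24% of all tested genes. That gene was Psmc1, an ATPase subunit of the proteasome, which starts 1.19 Mb beyond Ttc8. It had 268, 266, 288 and 282 CPM in Bbs8+/+ and 340.2, 356, 308 and 381 CPM in Bbs8-/-. All Bbs8-/- libraries lay above all Bbs8+/+ libraries, and Psmc1 rose by 0.33 on the log2 scale with a standard error of 0.0686 (edgeR FDR 0.000666). Within 20 Mb, 3 of 240 tested genes were higher and 4 lower, or 2.92%.

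**Figure D5:**
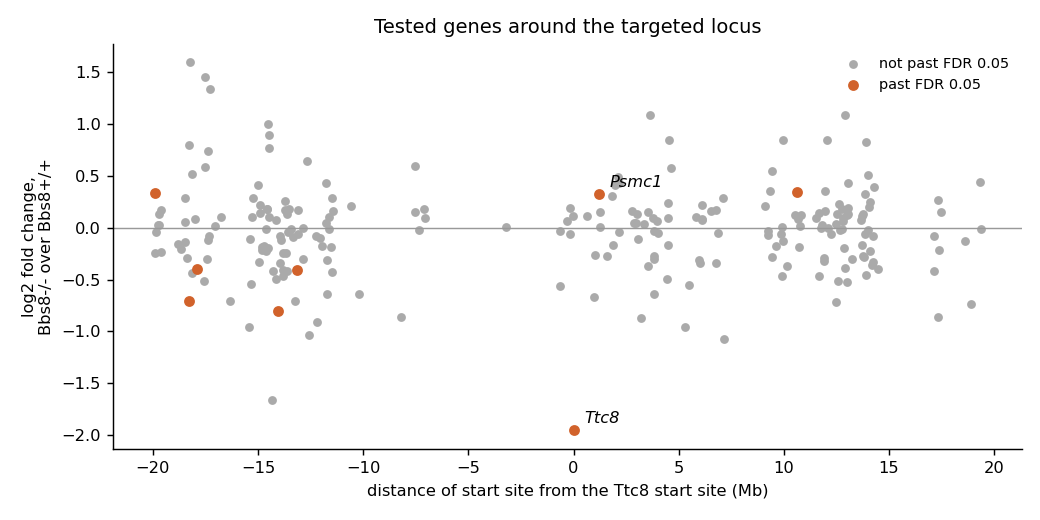
Log2 fold change, Bbs8-/- over Bbs8+/+ (y axis), of Ttc8 and 240 tested genes by the distance of their start site from that of Ttc8 in Mb (x axis). Coloured points are past FDR 0.05. Ttc8 lies far below the rest at -1.95, and Psmc1 is the 1 coloured neighbour within 5 Mb.

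Among 9041 genes with a mean of at least 10 CPM, the profiles over the 8 libraries nearest to that of Ttc8 were those of Enc1, Ikbkg and Zdhhc8. The measure was the root mean square difference of centred log2 CPM, which was 0.58, 0.62 and 0.69. Their log2 fold changes were smaller than that of Ttc8, at -0.84, -0.79 and -0.81, and none passed the threshold (edgeR FDR 0.0686, 0.207 and 0.129). In all 3, as in Ttc8, Bbs8-/- replicate 3 was the lowest library. The genes were chosen for likeness to Ttc8, so this and their shared direction are no separate result. Enc1 had 20.3, 17.7, 18.7 and 20.3 CPM in Bbs8+/+ and 18.8, 11.5, 5.05 and 8.89 CPM in Bbs8-/-.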

How the data were processed

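The authors trimmed reads with BBDuk, aligned them with STAR to mm10 and assigned them to genes with htseq-count, and they deposited raw counts of uniquely aligned reads, 1 file per library. Their multi-mapping filter was not applied here. Poisson intervals and floors cover counting error alone, since no molecular identifier is mentioned, whereas intervals of log2 fold changes come from the spread between libraries. Reads outside genes (42.1% to 44.4%) and ambiguous reads (0.309% to 0.323%) were left out of library totals. Symbols came from GENCODE M21, which matched 31011 of 31053 identifiers.

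The filter kept 13813 genes that reached 1 CPM in 4 or more libraries. Genotype effects were tested by two-sided quasi-likelihood F tests (edgeR 4.0.16, R 4.3.3) on TMM-scaled counts, without further covariates, and adjusted by Benjamini-Hochberg over these genes. Standard errors were derived from the F statistics. The procedure was tested on simulated data. Replicates differed beyond counting noise (chi-square per gene 1.87 to 3.08 over 12 pairs).

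The members and lists were chosen with earlier results of these data known. Genes named besides the members were the 3 linked and 3 cargo genes with the smallest p, neighbours of Ttc8 within 5 Mb past FDR 0.05, and the 3 nearest profiles. Mkks, Bbs10, Bbs12, the other list genes and the single markers were named after their values were seen. Alternatives were RLE factors, total counts, filterByExpr, no filter, DESeq2 1.42.0, thinning to the smallest total, the replicate number as a block, and leaving out each library.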

Additional observations from a re-analysis of the deposited data

Results flagged for a closer look

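Each member was examined in each genotype, which gave 20 groups of 4 libraries, and in 1 of them a library stood apart when its gap to the others was set against the spread of the group. Bbs7 was 7.321 CPM in Bbs8-/- replicate 2 and 4.252 to 4.677 CPM in the remaining Bbs8-/- libraries. Chance gives about 1 such library in 20 groups.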

How the results depend on the processing

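Ttc8 was past FDR 0.05 and lower in all 15 alternatives (log2 fold change -2.44 to -1.70, FDR 4.9e-07 to 0.000253), and no other member passed in any of them. Bbs4 and Arl6 kept their direction in all 15, as did Bbs2, which was -0.013 without Bbs8+/+ replicate 3 and -0.56 without Bbs8-/- replicate 4. Uncalled members whose intervals span 0 changed sign: Bbs1 to 0.0402 and Lztfl1 to 0.037 with thinned counts. Leaving out single libraries gave -0.21 to 0.0551 for Bbs1, -0.46 to 0.0867 for Bbs7, -0.29 to 0.14 for Bbs9 and -0.057 to 0.15 for Bbip1. Bbs1 changed sign without Bbs8+/+ replicate 4, Bbs7 without Bbs8+/+ replicate 2, Bbs9 without Bbs8+/+ replicate 1, and Bbip1 without Bbs8+/+ replicates 1 or 3 or Bbs8-/- replicates 1 or 4. Of neighbours of Ttc8 within 20 Mb, 4 were called lower, against 2 with DESeq2, 1 with thinned counts, and 1 to 5 without single libraries (1 without Bbs8+/+ replicate 1 or Bbs8-/- replicate 2); the cause was not tested.

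Same-numbered libraries did not deviate together (correlations -0.06 to 0.02 over 6628 genes, and 1 of 4 Bbs8+/+ libraries correlated best with its own number), so the numbers pair nothing. With the replicate number as a block, Ttc8 was -1.97, 134 genes were higher and 129 lower, and 2 neighbours within 20 Mb were lower.

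Depth limits these values, as Bbs1, Bbs2, Bbs7, Bbs9 and Arl6 averaged at most 11.1 CPM in either genotype, and Bbs5 was at or under the floor.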
